A study of Mus musculus with 25 samples.

Results

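Chemokine ligands are the secreted or membrane-anchored proteins that guide leukocytes, and the genes described here are the 38 of 54752 genes in the files whose mouse symbol is Ccl, Cxcl, Cx3cl or Xcl followed by a number and at most a letter. The rule reads symbols and no measured values, but it was chosen with earlier results of these data known. RNA was sequenced from 2 fat depots, epididymal (eWAT) and inguinal white adipose tissue (iWAT), of male C57BL/6N mice, with 1 library per mouse and depot. The eWAT libraries came from 4 wild type mice on a normal chow diet (ND), 5 wild type mice on a high-fat diet (HFD) and 5 *Acod1*-/- mice on HFD, and the iWAT libraries from 3, 5 and 3 mice of the same kinds. In the HFD, 60% of calories came from fat, and feeding began at 5 weeks of age. It lasted 16 weeks in all but 2 of the iWAT *Acod1*-/- libraries, for which the labels give 17 and 18 weeks. *Acod1*-/- mice lack the enzyme that makes itaconate in every cell of the body, so the genotype comparison is not restricted to any cell type. ND-fed *Acod1*-/- mice were not analysed here, and the labels do not say whether both depots came from the same animals.

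Chemokine ligands bind G protein-coupled receptors on leukocytes and are grouped by the receptor they engage. The ligands of Ccr2, such as Ccl2, are known for drawing monocytes from blood into obese fat, and those of Ccr1 act on macrophages, neutrophils and T cells. Another group, Ccl19, Ccl21 and Cxcl13, is made by the stroma of lymph nodes and places T and B cells there, and Cxcl12 and Cxcl14 are made by many tissues at rest.

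Reads counted on genes ranged from 31.41 to 52.34 M among the libraries. *Acod1* itself had between 0 and 9 counts in each library and at most 2 in any *Acod1*-/- library, too few to check the labelled genotypes. Libraries carry running numbers in the headers, which fall into a lower series of 14 and a higher series of 11. The higher series holds all 7 ND libraries and 1 library of each HFD group, so diet and numbering series can hardly be told apart. The 7 adipocyte markers summed to 20333 to 42634 CPM (counts scaled to library size) in eWAT and 23609.8 to 50522 in iWAT, and the 7 mesothelial markers, which belong to visceral fat, to 41.4 to 166 CPM in eWAT and at most 7.18 in iWAT. All 3 ND iWAT libraries held lymph node transcripts. Their 7 B-cell markers summed to 686, 1012 and 797 CPM, against 94.9 in HFD wild type iWAT library 5, 54.9 in eWAT *Acod1*-/- library 4 and at most 15.1 in the others. Epididymal transcripts, by 8 markers, reached 7866 CPM in ND eWAT library 2 and 1127 CPM in eWAT *Acod1*-/- library 5.

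Of the 38 ligands, 26 reached a group mean of at least 1 FPKM (fragments per kilobase of cDNA, scaled to the reads counted on genes, the measure by which levels of different genes are compared here). The number at that level was 19 in ND, 23 in HFD wild type and 18 in HFD *Acod1*-/- eWAT, and 23, 20 and 16 in the same groups of iWAT. The highest level of any ligand was that of *Ccl6*, a Ccr1 ligand of macrophages, in HFD wild type eWAT, at 185 ± 86.8 FPKM (SD, n = 5). *Ccl9*, a neighbour of *Ccl6* with the same receptor, had 136 ± 62.001 FPKM (SD, n = 5), and *Ccl11*, the eosinophil attractant eotaxin, 76.5 ± 14.3 FPKM (SD, n = 5). These 3 genes made up 64.9% of the summed FPKM of all 38 ligands in that group. In ND iWAT the order was different, with *Ccl21a* first at 172 ± 90.8 FPKM (SD, n = 3), *Ccl5* at 69.03 ± 17.3 FPKM (SD, n = 3) and *Cxcl13* at 54.9 ± 5.03 FPKM (SD, n = 3). Summed over the 38 genes, the group means came to 233 FPKM in ND, 613 in HFD wild type and 272 in HFD *Acod1*-/- eWAT, and to 492, 340 and 210 FPKM in iWAT.

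**Figure D1:**
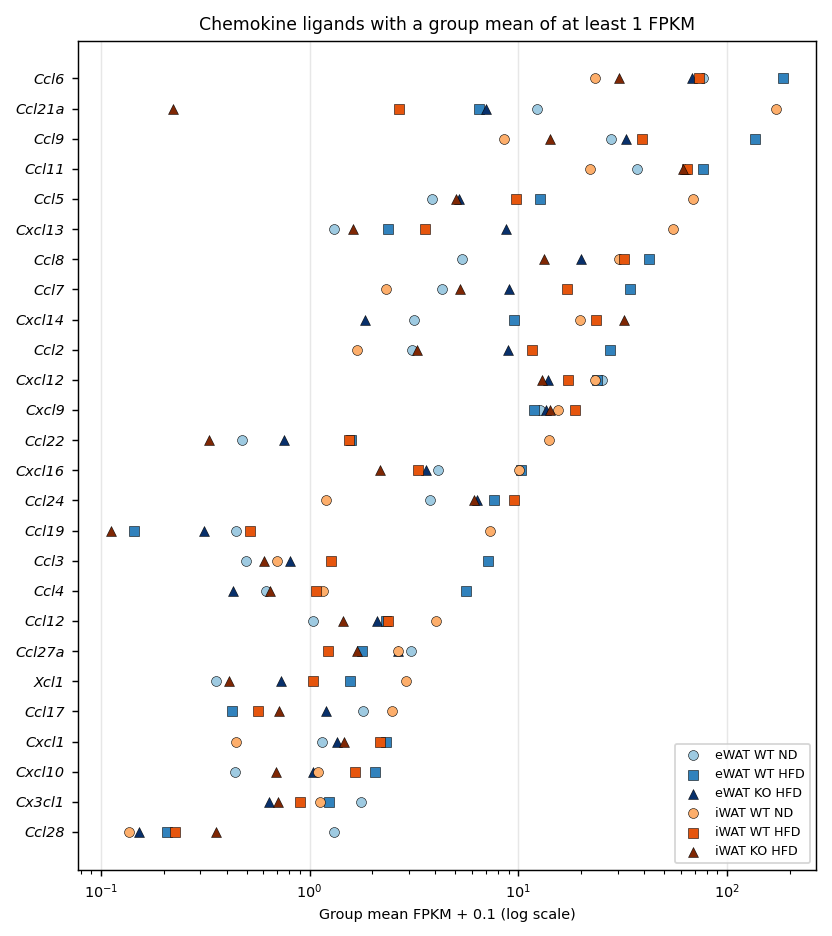
Group mean FPKM plus 0.1, on a log scale, of the 26 ligands that reached 1 FPKM in any group, ordered by their highest group mean. Circles are ND wild type, squares HFD wild type and triangles HFD *Acod1*-/- (KO), in blue for eWAT and orange for iWAT; *Ccl6* is highest in HFD wild type eWAT and *Ccl21a* in ND iWAT.

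A mean of at least 1 CPM over a depot's libraries was asked of a gene before testing, and 26 ligands had it in 1 depot or both. This is not the same set as the 26 at 1 FPKM, since *Ccl17* and *Xcl1* reached 1 FPKM in a group but were not tested, and *Ccl25* and *Cxcl2* were tested without reaching it. The 12 ligands that were not tested were *Ccl1*, *Ccl17*, *Ccl20*, *Ccl21b*, *Ccl26*, *Ccl27b*, *Cxcl3*, *Cxcl5*, *Cxcl11*, *Cxcl15*, *Cxcl17* and *Xcl1*. *Ccl20*, *Ccl21b* and *Ccl27b* had no read in any library. The *Ccl21* and *Ccl27* genes have near-identical copies, and the file headers mark the counted reads as uniquely aligned, so the levels of *Ccl21a* and *Ccl27a* are uncertain. Counts of the neutrophil attractants *Cxcl3* and *Cxcl5* reached at most 5 and 23 in a library. *Cxcl15*, which is known from lung, had reads in 1 library only. Of the tested ligands, 24 passed in eWAT and 22 in iWAT, 20 of them in both. Those that passed in eWAT alone were *Ccl3*, *Ccl4*, *Ccl28* and *Cxcl2*, and those in iWAT alone were *Ccl12* and *Ccl19*, and for *Ccl3*, *Ccl4*, *Cxcl2*, *Ccl28* and *Ccl19* the mean was under 1 CPM without their highest group.

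Calls are at an adjusted p under 0.1 from edgeR's quasi-likelihood test, adjusted over all genes tested in the depot. Changes are log2 fold changes ± SE. Levels in single libraries are CPM scaled by TMM over the 25 libraries. Under HFD in wild type eWAT, 14 of the 24 ligands rose and 3 fell, where 51.8% of all 14936 genes were called (24.8% higher and 26.9% lower). The median log2 fold change of the 24 ligands was 1.21, against -0.04 over all genes. The libraries of 13 ligands did not overlap between the diets, as held for 35% of genes. In *Acod1*-/- against wild type eWAT, both on HFD, 12 ligands fell and 1 rose, where 19.9% of genes were called (10.8% lower and 9.13% higher), and the medians were -1.05 for the ligands and 0.04 for all genes. *Ccl2*, *Ccl4*, *Ccl5*, *Cxcl14* and *Cxcl16* did not overlap between genotypes, as held for 7.01% of genes. *Ccl2* to *Ccl7* and *Ccl9*, all among the 12, are also ligands that the study chose on these samples, so their direction in eWAT is not independent evidence. Without *Ccl3*, *Ccl4*, *Cxcl2* and *Ccl28*, which passed the filter through 1 group, 12 of 20 ligands rose and 2 fell with diet, and 9 fell and 1 rose with the loss of *Acod1*. The medians above include these ligands. The ligands without overlap include *Ccl3* and *Ccl4* for diet and *Ccl4* for genotype. Both comparisons use the same 5 HFD wild type libraries. In iWAT, 8 of the 22 ligands rose and 8 fell under HFD, where 50.1% of 14801 genes were called (25.9% higher and 24.2% lower) and 15 ligands and 47.2% of genes did not overlap, with medians of 0.04 and 0.00. Without *Ccl19*, which passed the filter only through ND iWAT, 8 of 21 ligands rose and 7 fell. *Ccl19* is among the 15 without overlap and in the median. Of the 20 ligands tested in both depots, HFD raised 6 in each (12.8% of 14128 genes), lowered 2 in each (10.9%) and moved 3 in opposite directions (5.51%). No ligand and no other gene was called between genotypes in iWAT. There, 9 ligands and 2468 genes had an unadjusted p under 0.05, and DESeq2's Wald test called 6 ligands, all lower in *Acod1*-/-, among 1072 genes. Without *Acod1*-/- library 3 the fit called 2659 genes and without HFD wild type library 5 it called 214.

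**Figure D2:**
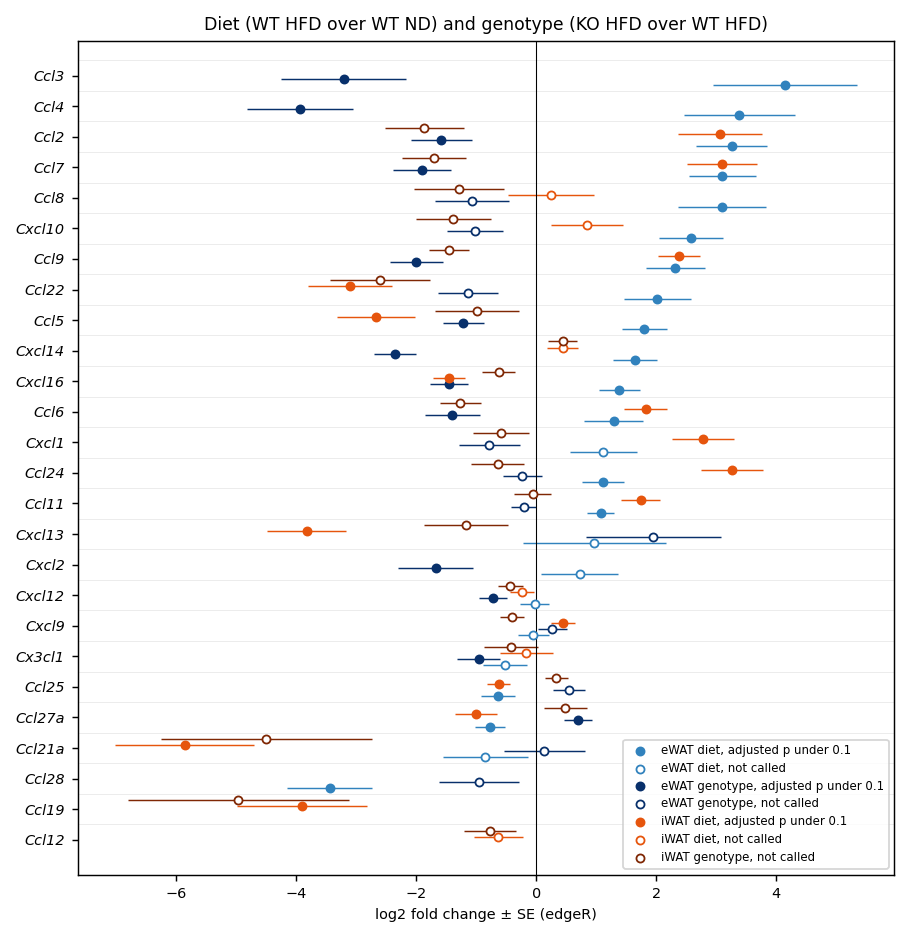
Log2 fold changes with SE bars of every tested ligand for diet (wild type HFD over ND) and genotype (*Acod1*-/-, or KO, over wild type, both on HFD) in both depots. Filled points passed an adjusted p of 0.1; *Ccl2*, *Ccl7* and *Ccl9* rose with diet in both depots, and *Ccl5*, *Ccl22* and *Cxcl16* rose in eWAT and fell in iWAT.

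The ligands of Ccr2 were among those with the largest rise under HFD. *Ccl2* (chr11:82035571-82037453, + strand), the main monocyte attractant, was at 6.22, 2.30, 3.30 and 1.11 CPM in ND, 29.2, 21.8, 25.5, 56.2 and 24.5 CPM in HFD wild type and 5.23, 8.46, 3.26, 15.3 and 19.9 CPM in HFD *Acod1*-/- eWAT. Every HFD wild type library was above every ND and every *Acod1*-/- library. It rose by 3.26 ± 0.60 log2 (adjusted p = 0.00129) with HFD and fell by 1.58 ± 0.51 log2 (adjusted p = 0.0584) with the loss of *Acod1*. In iWAT the same gene was at 2.87, 0.599 and 1.44 CPM in ND, 8.70, 8.81, 7.34, 33.3 and 8.60 in HFD wild type and 1.89, 4.48 and 4.84 in HFD *Acod1*-/- mice. The HFD wild type iWAT libraries were above both other groups, and the diet change was called (3.06 ± 0.70 log2, adjusted p = 0.00553) and the genotype difference was not (-1.87 ± 0.65 log2, adjusted p = 0.198). *Ccl7* lies next to *Ccl2* and acts on the same receptor. Its eWAT libraries were at 5.07, 3.28, 3.10 and 1.36 CPM in ND, 12.9, 19.2, 24.7, 54.8 and 27.4 in HFD wild type and 7.05, 3.92, 2.53, 9.71 and 13.6 in HFD *Acod1*-/- mice, where the highest *Acod1*-/- library exceeded the lowest wild type library. The rise was 3.10 ± 0.56 log2 (adjusted p = 0.00119) and the difference between genotypes -1.90 ± 0.49 log2 (adjusted p = 0.0257). In iWAT *Ccl7* rose by 3.09 ± 0.59 log2 (adjusted p = 0.00196), and the *Acod1*-/- libraries, at 3.85, 3.69 and 5.38 CPM, were all below the HFD wild type libraries, at 10.2, 10.6, 9.75, 29.5 and 8.86 CPM, without a call (-1.70 ± 0.54 log2, adjusted p = 0.168). *Ccl12*, the remaining mouse Ccr2 ligand, stayed at or below 2.57 CPM in every library and was tested in iWAT alone, where neither comparison passed.

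The fall of *Ccl2* in *Acod1*-/- eWAT rested on single libraries. Without HFD wild type library 4, which had the highest *Ccl2* level, its adjusted p was 0.15, and it was between 0.107 and 0.122 without *Acod1*-/- library 1, 2 or 3.

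The inflammatory CC ligands *Ccl5*, *Ccl6* and *Ccl9* rose under HFD and fell with the loss of *Acod1* in eWAT, where 24.8% of genes were called higher with diet and 10.8% lower with genotype. *Ccl9* was at 100.4, 63.7, 97.2 and 61.9 CPM in ND, 648, 338, 308, 526.1 and 226 in HFD wild type and 95.3, 37.8, 42.8, 103 and 229.7 in HFD *Acod1*-/- mice. The HFD wild type libraries were all above the ND libraries, and 4 of 5 *Acod1*-/- libraries were below every HFD wild type library. Diet changed it by 2.32 ± 0.49 log2 (adjusted p = 0.00284) and genotype by -1.997 ± 0.45 log2 (adjusted p = 0.0159). *Ccl6* was at 155, 90.003, 178 and 111 CPM in ND, 402, 303, 243, 559 and 150.3 in HFD wild type and 135, 37.8, 58.7, 127 and 264 in HFD *Acod1*-/- eWAT, and both pairs of groups overlapped. Its changes were 1.29 ± 0.50 log2 (adjusted p = 0.0496) for diet and -1.40 ± 0.46 log2 (adjusted p = 0.0632) for genotype, and the genotype call was lost without any 1 of 5 libraries (adjusted p up to 0.157). Its rise with diet no longer passed without ND library 2 (adjusted p = 0.115), ND library 4 (0.111) or HFD wild type library 4 (0.125).

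The macrophage inflammatory proteins *Ccl3* and *Ccl4* were low in ND and varied among HFD libraries. Both passed the filter only through the HFD wild type group, so their changes are given as values and not as support for a direction. *Ccl3* was at 0.440, 0.333, 0.175 and 0.194 CPM in ND, 13.1, 4.74, 0.939, 5.45 and 1.95 in HFD wild type and 0.592, 0, 0, 0.403 and 1.75 in HFD *Acod1*-/- eWAT. Library 1 of the HFD wild type group had the highest value and library 3 the lowest, which lay below the highest *Acod1*-/- library. The changes were 4.15 ± 1.20 log2 (adjusted p = 0.0141) for diet and -3.21 ± 1.04 log2 (adjusted p = 0.06) for genotype, the latter lost without HFD wild type library 1 (adjusted p = 0.156), HFD wild type library 4 (0.104), *Acod1*-/- library 1 (0.108) or *Acod1*-/- library 4 (0.119). *Ccl4*, its neighbour on chromosome 11, was at 0.476, 0.259, 0.150 and 0.427 CPM, 9.10, 3.40, 0.802, 3.31 and 1.07 CPM and 0.0986, 0.190, 0, 0.617 and 0.219 CPM in the same groups. HFD wild type libraries were apart from both other groups, with changes of 3.39 ± 0.93 log2 (adjusted p = 0.0109) and -3.94 ± 0.88 log2 (adjusted p = 0.0158), and the genotype call held without any 1 of the 10 libraries. With the numbering series as a term the diet change of *Ccl4* had an adjusted p of 0.137.

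*Ccl5*, made by T cells and macrophages, moved in opposite directions in the depots. In eWAT its ND libraries were at 3.22, 3.74, 3.40 and 3.53 CPM, the HFD wild type libraries at 9.90, 8.97, 9.62, 23.8 and 9.02 CPM and the *Acod1*-/- libraries at 3.33, 8.57, 6.93, 2.68 and 4.67 CPM. The HFD wild type group was above both others, with changes of 1.80 ± 0.38 log2 (adjusted p = 0.00283) for diet and -1.21 ± 0.35 log2 (adjusted p = 0.0387) for genotype. Without HFD wild type library 4, at 23.8 CPM, the genotype difference had an adjusted p of 0.107. The 7 T-cell markers summed to 9.65, 8.81, 5.58 and 7.30 CPM in ND, 17.6, 19.5, 22.5, 36.7 and 18.6 CPM in HFD wild type and 6.43, 8.95, 8.32, 10.6 and 11.1 CPM in HFD *Acod1*-/- eWAT, and HFD wild type library 4 was the highest eWAT library for both these markers and *Ccl5*. Of the 7 markers 4 rose with diet (24.8% of all genes) and 3 fell with the loss of *Acod1* (10.8%), and their part in the *Ccl5* differences was not tested. In iWAT *Ccl5* stood at 45.1, 75.04 and 61.4 CPM in ND and 5.57, 6.51, 2.84, 9.42 and 22.2 CPM in HFD wild type mice, a change of -2.67 ± 0.65 log2 (adjusted p = 0.00759). The difference between the 2 diet responses was 4.52 ± 0.79 log2 (adjusted p = 0.000366). The ND iWAT libraries held lymph node transcripts, so diet and lymph node content cannot be told apart for *Ccl5* in iWAT. In iWAT the diet changes of *Ccl6* and *Ccl9* were 1.82 ± 0.36 log2 (adjusted p = 0.00234) and 2.38 ± 0.35 log2 (adjusted p = 0.000546). ND iWAT libraries lay at 23.997, 22.7 and 23.6 CPM of *Ccl9*, all below the HFD wild type libraries at 174, 83.4, 92.6, 189 and 60.5 CPM. The 3 iWAT *Acod1*-/- libraries, at 47.1, 41.3 and 45.2 CPM, were below every HFD wild type library, but the difference did not pass (-1.46 ± 0.34 log2, adjusted p = 0.137), and the same held for *Ccl6* (-1.26 ± 0.35 log2, adjusted p = 0.153).

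Macrophage markers moved with these ligands. The 12 markers summed to 1066, 653, 861 and 701 CPM in ND, 5139.9, 3565, 2053, 4437 and 1576 in HFD wild type and 966, 541, 627, 870.1 and 1648 in HFD *Acod1*-/- eWAT, and no marker was at 0 in a whole group. With HFD, 10 of the 12 rose and 2 fell (24.8% and 26.9% of all genes), and with the loss of *Acod1* 10 fell (10.8% of all genes). Of 8 genes of lipid-associated macrophages, 7 rose and 6 fell in the same comparisons, though *Lpl* and *Lipa* of that list are also adipocyte genes. In iWAT the macrophage sums were 564, 673 and 544 CPM in ND, 1269, 738, 903, 1539 and 634 in HFD wild type and 611, 425 and 538 in *Acod1*-/- mice, and 8 of the 12 markers rose with HFD (25.9% of all genes). In bulk tissue fewer macrophages and less ligand RNA per macrophage cannot be told apart, and the part of macrophage number in these differences was not tested.

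Both genotypes of HFD eWAT are split over the numbering series. In the lower series alone, 4 libraries of each genotype, 14 of 24 ligands fell and 1 rose, where 3738 of 14936 genes were called (2137 lower and 1601 higher). The higher series holds 1 library of each genotype, and there the *Acod1*-/- library had 229.7 CPM of *Ccl9* against 226 in the wild type library, 264 against 150.3 CPM of *Ccl6* and 19.9 against 24.5 CPM of *Ccl2*. For *Cxcl14* the same pair was at 5.99 and 12.4 CPM and for *Cxcl16* at 16.1 and 18.1 CPM, with no replicate check. Macrophage markers summed to 1648 CPM in that *Acod1*-/- library and to 1576 CPM in its wild type counterpart. Leaving out HFD wild type library 4 reduced the calls from 13 ligands to 5 (from 2976 genes to 1851), and leaving out *Acod1*-/- library 5 raised them to 16 (4237 genes). The number was 8 without *Acod1*-/- library 1 (2131 genes), without *Acod1*-/- library 3 (1831 genes) or without HFD wild type library 1 (1723 genes).

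**Figure D3:**
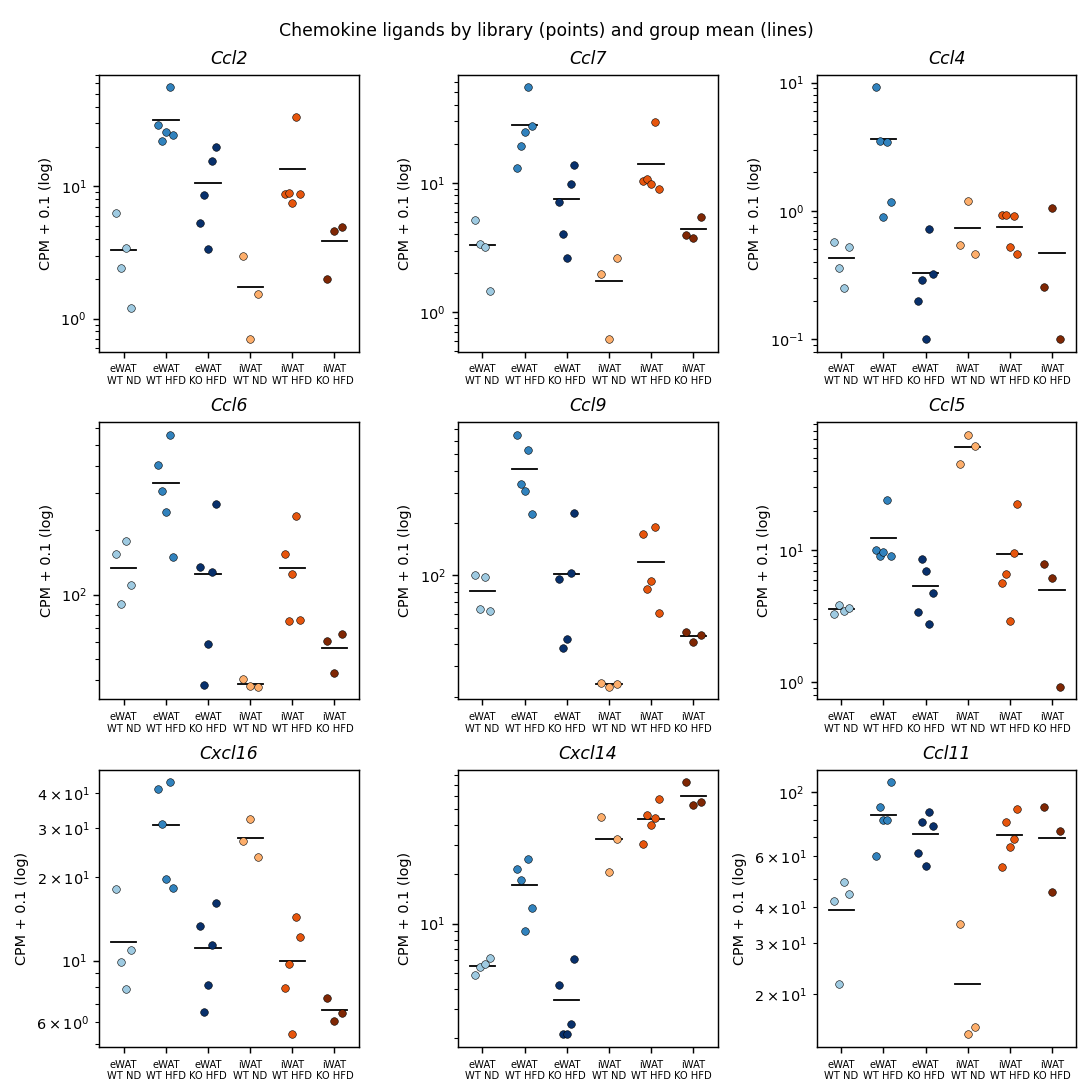
CPM plus 0.1 of 9 ligands in each of the 25 libraries, on log scales, with a point per library and a line at the group mean. In HFD wild type eWAT all libraries are above the ND libraries for the ligands shown except *Ccl6*, and *Cxcl14* is the ligand whose iWAT libraries lie above all eWAT libraries in each of the 3 conditions. KO stands for *Acod1*-/-.

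These genes lie in tandem on chromosome 11, where 12 of the 38 ligands are found. In the order of the chromosome, *Ccl2*, *Ccl7*, *Ccl11*, *Ccl12* and *Ccl8* follow each other between 82035571 and 82116799, and *Ccl5*, *Ccl9*, *Ccl6*, *Ccl3* and *Ccl4* between 83525778 and 83664683 (GRCm38). With the loss of *Acod1* in eWAT, *Ccl2* and *Ccl7* fell while the adjacent *Ccl11* differed by -0.21 ± 0.21 log2 (adjusted p = 0.545). To show what precedes the start of neighbouring ligands, the 250 bases before the RefSeq start (GRCm38.p6, all on the - strand) are given for *Ccl9*, *Ccl6* and *Ccl3*, and for *Cxcl10*, a Cxcr3 ligand that rose with diet in eWAT. Capitals mark matches, on either strand, to the NF-kappaB consensus or to the interferon response element, searched as a pair of GAAA separated by 2 bases of any kind.
Ccl9, chr11:83578637-83578886: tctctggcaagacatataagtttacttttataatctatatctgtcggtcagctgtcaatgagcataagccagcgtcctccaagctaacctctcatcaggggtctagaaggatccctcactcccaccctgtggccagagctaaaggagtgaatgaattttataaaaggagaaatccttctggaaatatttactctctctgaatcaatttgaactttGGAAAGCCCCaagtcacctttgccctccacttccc
Ccl6, chr11:83593088-83593337: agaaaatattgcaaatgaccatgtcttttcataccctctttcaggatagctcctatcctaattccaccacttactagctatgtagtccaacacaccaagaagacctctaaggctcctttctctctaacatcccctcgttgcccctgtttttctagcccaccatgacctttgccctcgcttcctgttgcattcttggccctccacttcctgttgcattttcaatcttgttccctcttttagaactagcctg
Ccl3, chr11:83649379-83649628: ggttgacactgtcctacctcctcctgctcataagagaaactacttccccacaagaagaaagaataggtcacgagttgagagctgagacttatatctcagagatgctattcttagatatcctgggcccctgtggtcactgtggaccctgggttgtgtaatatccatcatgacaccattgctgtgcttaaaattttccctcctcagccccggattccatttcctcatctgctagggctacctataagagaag
Cxcl10, chr5:92348890-92349139: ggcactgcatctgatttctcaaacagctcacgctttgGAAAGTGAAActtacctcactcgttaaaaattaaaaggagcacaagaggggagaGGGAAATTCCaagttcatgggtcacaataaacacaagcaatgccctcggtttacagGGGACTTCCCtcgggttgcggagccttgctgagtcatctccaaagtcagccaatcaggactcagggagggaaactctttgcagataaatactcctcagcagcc
*Ccl9* had 1 match to the NF-kappaB consensus and *Cxcl10* had 2, with 1 match to the interferon response element, and none of these letters was found in the windows of *Ccl6* and *Ccl3*. RefSeq windows of 300 bases, reaching 50 bases past the start, were at hand for 27 of the 38 ligands. Of these, 7 held the NF-kappaB consensus (*Ccl9*, *Ccl20*, *Ccl27a*, *Cxcl1*, *Cxcl2*, *Cxcl3* and *Cxcl10*), as did 5.14% of 27025 genes, and 3 held the interferon response element (*Ccl19*, *Cxcl10* and *Cxcl14*), as did 3.99%. The TATA box letters TATAAA were in 10 of the 27 and in 15.67% of genes. AP-1's TGANTCA was in 6 of the 27 and in 8.97% of genes. Marked matches do not overlap each other in the sequences shown, and a match is a description of letters, not of a bound site.

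*Ccl8*, *Ccl11* and *Ccl24* attract eosinophils, T cells and monocytes through Ccr8 and Ccr3. *Ccl8* was at 4.65, 2.44, 1.45 and 1.65 CPM in ND, 11.7, 8.89, 18.4, 52.9 and 18.7 in HFD wild type and 5.94, 6.55, 5.71, 3.33 and 30.8 in HFD *Acod1*-/- eWAT. It rose by 3.10 ± 0.73 log2 (adjusted p = 0.00506) with diet, while the genotypes overlapped (-1.07 ± 0.62 log2, adjusted p = 0.274), with *Acod1*-/- library 5 alone in the wild type range. In iWAT it was at 7.48, 24.3 and 10.5 CPM in ND and 30.8, 9.42, 7.24, 30.7 and 4.20 CPM in HFD wild type mice, without a call (0.24 ± 0.71 log2, adjusted p = 0.804), and the diet responses of the depots differed by 2.89 ± 1.04 log2 (adjusted p = 0.0512). That difference was lost without HFD wild type eWAT library 4 (adjusted p = 0.117) or ND iWAT library 2 (0.186). *Ccl11* rose in both depots, by 1.07 ± 0.23 log2 (adjusted p = 0.00308) in eWAT and 1.74 ± 0.33 log2 (adjusted p = 0.0018) in iWAT, to 76.5 ± 14.3 FPKM (SD, n = 5) and 64.6 ± 11.3 FPKM (SD, n = 5). It was the most abundant of these 3 ligands in every group but ND iWAT, where *Ccl8* had 30.4 ± 19.96 FPKM (SD, n = 3) and *Ccl11* 22.03 ± 12.6 FPKM (SD, n = 3). *Acod1*-/- mice had *Ccl11* at 62.6 ± 11.5 FPKM (SD, n = 5) in eWAT and 61.4 ± 19.6 FPKM (SD, n = 3) in iWAT, and neither genotype difference passed. *Ccl24*, eotaxin-2, went from 1.32, 0.811 and 1.80 CPM in ND to 9.82, 8.48, 14.9, 21.04 and 7.85 CPM in HFD iWAT and from 4.79, 4.63, 4.40 and 4.41 to 3.96, 8.68, 16.01, 12.1 and 8.94 CPM in eWAT. The iWAT groups were apart and the eWAT groups overlapped. The changes were 3.26 ± 0.51 log2 (adjusted p = 0.000747) and 1.11 ± 0.35 log2 (adjusted p = 0.0225), the latter without a call when the numbering series entered the fit (adjusted p = 0.165), and their difference was -2.12 ± 0.59 log2 (adjusted p = 0.013).

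*Cxcl14*, a ligand made by epithelia, stroma and fat whose receptor is not settled, was the 1 ligand called in all 3 comparisons between depots (chr13:56288643-56296551, - strand). In eWAT it was at 4.74, 5.31, 5.55 and 6.06 CPM in ND, 21.5, 18.4, 8.96, 24.6 and 12.4 in HFD wild type and 4.14, 2.02, 2.04, 2.33 and 5.99 in HFD *Acod1*-/- mice. Every HFD wild type library was above every ND and every *Acod1*-/- library. In iWAT it was at 44.9, 20.5 and 32.5 CPM in ND, 30.4, 45.99, 39.7, 44.2 and 57.4 in HFD wild type and 72.7, 52.9 and 55.2 in HFD *Acod1*-/- mice. Here HFD wild type mice overlapped with both other groups, and in each condition the iWAT libraries were all above the eWAT libraries. In eWAT diet raised it by 1.65 ± 0.36 log2 (adjusted p = 0.00339) and the loss of *Acod1* changed it by -2.36 ± 0.34 log2 (adjusted p = 0.011). No gene had a smaller adjusted p in the genotype comparison, but *Cxcl14* shared this value with other genes, among them the macrophage markers *C1qa* and *C1qb*. In iWAT the changes were 0.44 ± 0.25 log2 (adjusted p = 0.185) and 0.44 ± 0.25 log2 (adjusted p = 0.401). From low to high, the group means ran from eWAT *Acod1*-/- and ND through eWAT HFD wild type to iWAT ND, HFD wild type and *Acod1*-/-. Of the neighbours in this order only ND and HFD wild type eWAT did not overlap.

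*Cxcl14* was lower in eWAT than in iWAT by 2.59 ± 0.36 log2 (adjusted p = 2.29e-05) in ND mice, 1.34 ± 0.29 log2 (adjusted p = 0.00481) in HFD wild type mice and 4.18 ± 0.35 log2 (adjusted p = 5.82e-07) in HFD *Acod1*-/- mice. The effect of genotype differed between depots by -2.83 ± 0.44 log2 (adjusted p = 0.0297), and *Cxcl14* was the single gene of 15609 called in that test (0.00641%), while 1607 genes had an unadjusted p under 0.05 and DESeq2's Wald test called 115. The number of genes was 393 without iWAT *Acod1*-/- library 3, 222 without eWAT *Acod1*-/- library 5 and 58 without iWAT *Acod1*-/- library 1. The call of *Cxcl14* held without any 1 of the 18 libraries and in all 7 other settings that gave it a value. The effect of diet differed by 1.25 ± 0.45 log2 (adjusted p = 0.054), which was lost without ND iWAT library 1 (adjusted p = 0.169) or HFD wild type eWAT library 4 (0.102) and with a replicate block (0.113). The 250 bases before its RefSeq start (GRCm38.p6, - strand) are shown because its level differed between depots in every condition, with capitals for the interferon response element, found once.
Cxcl14, chr13:56296552-56296801: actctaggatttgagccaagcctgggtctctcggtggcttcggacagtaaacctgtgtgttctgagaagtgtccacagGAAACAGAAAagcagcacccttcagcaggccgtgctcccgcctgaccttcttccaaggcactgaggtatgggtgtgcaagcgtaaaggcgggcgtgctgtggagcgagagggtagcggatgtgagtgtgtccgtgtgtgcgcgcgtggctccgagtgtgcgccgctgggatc
Adipocyte markers were at 20333, 29297, 41004, 32346 and 42634 CPM in HFD wild type and 41044, 42628, 41056, 36312 and 35472 CPM in HFD *Acod1*-/- eWAT (7 genes), fibroblast and progenitor markers at 1993 to 3515 and 1076 to 1962 CPM (8 genes), and their part in the *Cxcl14* difference was not tested. With the loss of *Acod1*, 3 of the 7 adipocyte markers rose (9.13% of all genes) and 5 of the 8 fibroblast markers fell (10.8%). In *Acod1*-/- iWAT library 2 the 7 markers of mammary and skin epithelium summed to 612 CPM, against 6.99 and 8.005 CPM in the other 2 libraries of that group, and it had the lowest *Cxcl14* of the 3. Without it *Cxcl14* differed between *Acod1*-/- eWAT and iWAT by -4.26 log2 (adjusted p = 2.15e-06), and the genotype effects of the depots differed by -2.92 log2 (adjusted p = 0.0651).

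The ligands with a membrane-bound form are *Cxcl16*, which binds Cxcr6 on T and NKT cells, and *Cx3cl1*, fractalkine. *Cxcl16* was at 18.004, 9.76, 7.83 and 10.8 CPM in ND, 41.2, 31.002, 19.5, 43.8 and 18.1 in HFD wild type and 13.3, 6.44, 8.07, 11.3 and 16.1 in HFD *Acod1*-/- eWAT. HFD wild type libraries were again above both other groups, with changes of 1.38 ± 0.34 log2 (adjusted p = 0.0066) for diet and -1.46 ± 0.32 log2 (adjusted p = 0.0149) for genotype, and both calls held without any 1 library. In iWAT the order turned, with 26.7, 32.2 and 23.5 CPM in ND and 7.88, 9.62, 5.33, 14.3 and 12.1 CPM in HFD wild type mice, a change of -1.46 ± 0.26 log2 (adjusted p = 0.00156). The diet responses of the depots differed by 2.89 ± 0.46 log2 (adjusted p = 0.000162), the smallest adjusted p among the ligands in that test. The ND iWAT libraries held lymph node transcripts, so diet and lymph node content cannot be told apart for *Cxcl16* in iWAT. *Cx3cl1* had at most 7.73 CPM in any library and fell with the loss of *Acod1* in eWAT by 0.96 ± 0.35 log2 (adjusted p = 0.0905), a call lost without any 1 of 6 libraries. An exon of *Cxcl16* shares 552 bases with *Zmynd15* on the other strand, and since the sources used here do not say whether strand was used in counting, reads of the 2 genes may not be told apart.

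The ligands of lymph nodes were highest in ND iWAT. *Ccl21a* was at 108, 213 and 84.8 CPM there, against 1.12, 0, 0, 1.85 and 8.20 CPM in HFD wild type and 0.102, 0.223 and 0 CPM in HFD *Acod1*-/- iWAT. All ND libraries were above all others, and the diet change was -5.86 ± 1.16 log2 (adjusted p = 0.00249). *Cxcl13*, the B-cell attractant of follicles, was at 55.6, 61.4 and 55.6 CPM in ND and 6.59, 0.912, 5.28, 3.98 and 3.19 CPM in HFD wild type mice (-3.83 ± 0.66 log2, adjusted p = 0.00117). *Ccl19*, which shares the receptor Ccr7 with *Ccl21a*, changed by -3.90 ± 1.08 log2 (adjusted p = 0.0141), and *Ccl22*, a product of dendritic cells that binds Ccr4, by -3.10 ± 0.71 log2 (adjusted p = 0.00536), from 24.3, 33.1 and 31.5 to 2.04, 2.66, 0.603, 2.66 and 8.92 CPM. In eWAT *Ccl22* went the other way, from 0.898, 0.703, 1.15 and 0.602 CPM in ND to 2.45, 4.55, 2.29, 5.11 and 2.80 CPM in HFD wild type mice (2.01 ± 0.56 log2, adjusted p = 0.0117), and the diet responses differed by 5.16 ± 0.95 log2 (adjusted p = 0.000615). The groups were apart in both depots. Among HFD iWAT libraries, wild type library 5 had the highest *Ccl19*, *Ccl21a*, *Ccl22* and *Ccl5*, at 1.45, 8.20, 8.92 and 22.2 CPM. It did not have the highest *Cxcl16* or *Cxcl13*, the latter at 3.19 CPM against 6.59 CPM in wild type library 1.

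Lymphocyte markers moved with this group. The 7 T-cell markers summed to 283, 467 and 305 CPM in ND iWAT, 85.6 in HFD wild type iWAT library 5 and at most 36.7 CPM in every other library. The 4 lymph node markers found in the files summed to 186, 246 and 175 CPM in ND iWAT, 12.7 in HFD wild type iWAT library 5, 7.84 in eWAT *Acod1*-/- library 4 and at most 1.71 CPM elsewhere, and *Glycam1* was at 0 in both HFD eWAT groups and *Acod1*-/- iWAT. In iWAT all 7 T-cell and all 7 B-cell markers fell with HFD (24.2% of all genes). No ND iWAT library was free of these transcripts, so diet and lymph node content cannot be told apart for any ligand in that depot. Among these are *Ccl5*, *Ccl19*, *Ccl21a*, *Ccl22*, *Cxcl13* and *Cxcl16*. Without HFD wild type library 5 all 6 of these named ligands were still called lower. With the numbering series as a term *Ccl19* was not (adjusted p = 0.175). In eWAT *Cxcl13* was highest in *Acod1*-/- library 4, at 39.7 CPM against 5.04, 1.15, 3.23, 2.35 and 1.13 CPM in HFD wild type mice, and neither comparison passed there.

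**Figure D4:**
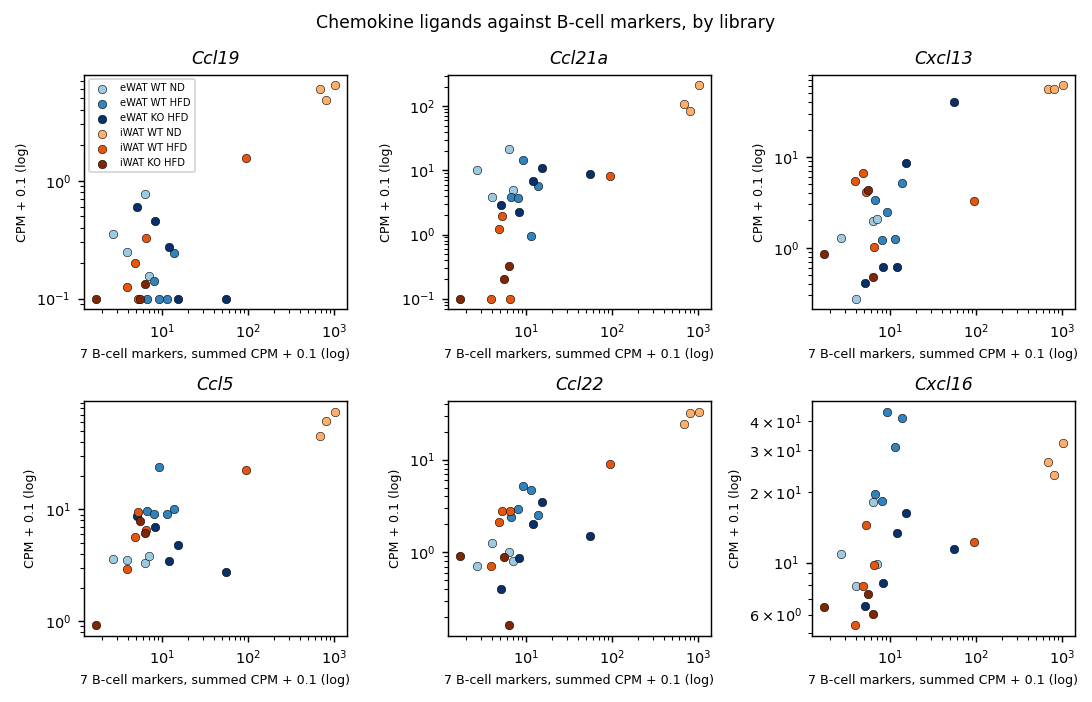
CPM plus 0.1 of 6 ligands against the summed CPM plus 0.1 of 7 B-cell markers in each library, on log scales, colored by group. The 3 ND iWAT libraries stand at the right, between 686 and 1012 CPM of B-cell markers, and HFD wild type iWAT library 5 and eWAT *Acod1*-/- library 4 lie between them and the other libraries.

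*Cxcl12*, the homeostatic ligand of Cxcr4, was at 25.1 ± 6.13 FPKM (SD, n = 4) in ND, 23.8 ± 3.75 FPKM (SD, n = 5) in HFD wild type and 13.9 ± 5.41 FPKM (SD, n = 5) in HFD *Acod1*-/- eWAT. Diet did not change it detectably (-0.03 ± 0.24 log2, adjusted p = 0.932), and it fell by 0.72 ± 0.23 log2 (adjusted p = 0.0542) with the loss of *Acod1*, with overlapping libraries. Without HFD wild type library 4 (adjusted p = 0.116) or *Acod1*-/- library 4 (0.122) that call was lost.

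Of the interferon-induced Cxcr3 ligands, *Cxcl9* was the more abundant, at a group mean of 11.8 to 18.6 FPKM in the 6 groups, and *Cxcl10* at 0.339 to 1.95 FPKM. *Cxcl10* rose in HFD eWAT from 1.18, 0.426, 0.375 and 0.932 to 3.19, 2.34, 4.10, 7.59 and 5.05 CPM (2.59 ± 0.53 log2, adjusted p = 0.00242), and *Cxcl9* did not pass there (-0.05 ± 0.26 log2, adjusted p = 0.897). In iWAT *Cxcl9* rose by 0.45 ± 0.20 log2 (adjusted p = 0.0953), a call lost without any 1 of 7 libraries and turned to -0.081 log2 with the numbering series as a term. *Cxcl10* shares 133 exon bases with *Art3* on the other strand. The neutrophil attractants *Cxcl1* and *Cxcl2* bind Cxcr2. *Cxcl1* rose in HFD iWAT from 0.857, 0.618 and 0.269 to 3.38, 5.24, 1.78, 6.15 and 3.17 CPM (2.78 ± 0.52 log2, adjusted p = 0.00184), with the groups apart, and its change in eWAT was 1.12 ± 0.55 log2 (adjusted p = 0.115). *Cxcl2* fell in *Acod1*-/- eWAT by 1.68 ± 0.62 log2 (adjusted p = 0.0914), a call lost without any 1 of 8 libraries. It passed the filter only through HFD wild type eWAT, so this is given as a value and not as support for a direction.

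Of 6 listed ligands of epithelia 3 were tested in eWAT. These, *Ccl25*, *Ccl27a* and *Ccl28*, fell there with diet (26.9% of all genes), *Ccl28* having passed the filter only through ND. *Ccl28*, a mucosal attractant of IgA-producing cells, was at 8.23, 5.42, 0.525 and 8.11 CPM in ND and 0.649, 0.553, 0.779, 0.339 and 0.262 CPM in HFD wild type eWAT (-3.44 ± 0.71 log2, adjusted p = 0.00233), with ND library 3 in the range of the HFD libraries. In iWAT it was at 0.0232, 0.174 and 0.292 CPM in ND and 0.845, 0.988, 0.829, 0.0488 and 0.384 CPM in HFD wild type mice, and the depots differed in the effect of diet by -5.33 ± 1.29 log2 (adjusted p = 0.00556). The 7 markers of mammary and skin epithelium summed to 73.1, 397, 34.8 and 71.8 CPM in ND and 4.08, 6.59, 7.47, 20.8 and 24.5 CPM in HFD wild type eWAT, and their part in the *Ccl28* change was not tested. *Ccl25*, of the thymus and gut, and *Ccl27a*, of the skin, fell in both depots (10.9% of all genes). The falls were 0.64 ± 0.28 log2 (adjusted p = 0.0787) and 0.77 ± 0.25 log2 (adjusted p = 0.0231) in eWAT. In iWAT *Ccl25* fell by 0.62 ± 0.19 log2 (adjusted p = 0.0232), and *Ccl27a* fell from 4.91, 6.57 and 5.05 CPM in ND to 3.63, 3.06, 3.44, 1.98 and 1.47 CPM in HFD wild type mice (adjusted p = 0.0406). The eWAT fall of *Ccl25* was lost without any 1 of 6 libraries (adjusted p up to 0.183), and both iWAT falls without ND library 2 (adjusted p of 0.113 for *Ccl25* and 0.142 for *Ccl27a*). *Ccl27a* was the 1 ligand that rose in *Acod1*-/- eWAT, by 0.69 ± 0.24 log2 (adjusted p = 0.0698), a call lost without any 1 of 6 libraries. *Ccl25* shares 204 exon bases with *Elavl1* on the other strand and *Ccl27a* 8 with *Il11ra1*.

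Between the depots, 26 ligands were compared in 1 fit of all 25 libraries. In ND mice 7 were higher and 10 lower in eWAT, where 32.4% of 15609 genes were called (18.3% higher and 14.1% lower). The higher ones were *Ccl6* (1.81 ± 0.53 log2, adjusted p = 0.0151), *Ccl9* (1.79 ± 0.50 log2, adjusted p = 0.0128), *Ccl11*, *Ccl24*, *Ccl28*, *Cxcl1* and *Cxcl2*. Among the lower ones were *Cxcl13* (-5.45 ± 1.30 log2, adjusted p = 0.004), *Ccl22*, *Ccl19*, *Ccl5* and *Ccl21a*, the ligands that were high in the ND iWAT libraries with lymph node transcripts, together with *Ccl8*, *Ccl12*, *Cxcl10*, *Cxcl16* and *Cxcl14*. *Ccl28* and *Ccl19* passed the filter only through ND eWAT and ND iWAT, respectively. Without ND iWAT library 2 the calls fell from 17 to 11, with *Ccl8*, *Ccl11*, *Ccl12*, *Cxcl1*, *Cxcl2* and *Cxcl10* lost. In HFD wild type mice 5 were higher and 2 lower in eWAT, where 18.3% of genes were called (11.3% higher and 7.02% lower). Among the 5, *Ccl3* and *Ccl4* passed the filter only through HFD wild type eWAT. *Ccl9* (1.77 ± 0.41 log2, adjusted p = 0.00639) and *Cxcl16* (1.64 ± 0.30 log2, adjusted p = 0.00141) were higher there and *Cxcl14* lower without any 1 library, whereas *Ccl3*, *Ccl4*, *Ccl6* and the lower *Cxcl9* depended on single libraries, and 4 ligands were called without HFD wild type eWAT library 1 or 4 and 3 without HFD wild type iWAT library 2. The macrophage sums of these groups are given above, and 10 of the 12 markers were higher in eWAT. In HFD *Acod1*-/- mice 2 ligands differed, *Cxcl14* and *Ccl21a*, where 4.22% of genes were called (2.25% higher and 1.97% lower). Without iWAT library 2, the library with epithelial markers, 181 genes were called and *Ccl21a* was not. *Ccl21a* was higher in eWAT (5.90 ± 1.58 log2, adjusted p = 0.0525), at 6.63, 2.78, 2.12, 8.59 and 10.6 CPM against the few counts (4, 7 and 0) of the 3 iWAT libraries, and that call was lost without any 1 of the iWAT libraries.

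**Figure D5:**
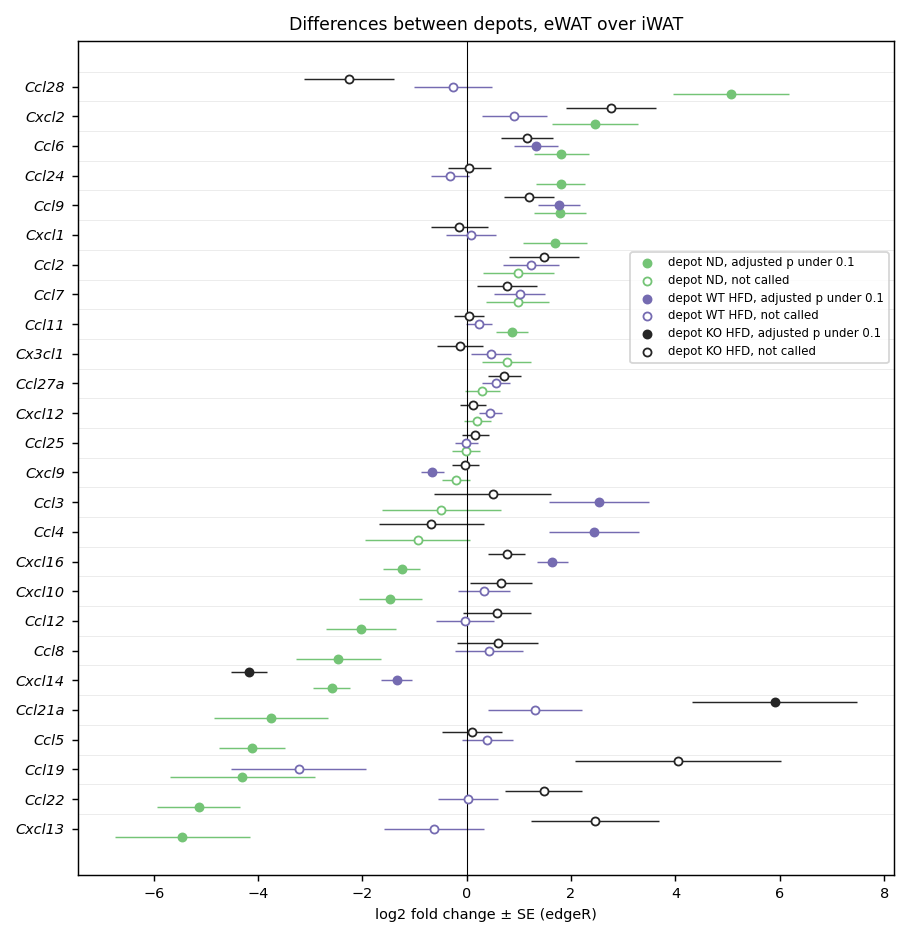
Log2 fold changes with SE bars between depots, eWAT over iWAT, for the 26 ligands in ND wild type, HFD wild type and HFD *Acod1*-/- (KO) mice. Filled points passed an adjusted p of 0.1; *Cxcl14* is left of 0 and filled in all 3 conditions.

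The effect of diet differed between the depots for 10 ligands, where 28.7% of genes were called (14.2% higher and 14.5% lower). *Ccl4*, *Ccl5*, *Ccl8*, *Ccl21a*, *Ccl22*, *Cxcl13*, *Cxcl14* and *Cxcl16* rose more, or fell less, in eWAT, and *Ccl24* and *Ccl28* did so in iWAT. The test uses the ND iWAT libraries, all with lymph node transcripts, so diet and lymph node content cannot be told apart in it. This holds for all 10 ligands, among them *Ccl5*, *Ccl21a*, *Ccl22*, *Cxcl13* and *Cxcl16*. *Ccl4* and *Ccl28* passed the filter only through HFD wild type eWAT and ND eWAT, respectively. For *Ccl2*, *Ccl7* and *Ccl9* the differences between depots were 0.25 ± 0.86 log2 (adjusted p = 0.875), 0.04 ± 0.79 log2 (adjusted p = 0.988) and -0.01 ± 0.62 log2 (adjusted p = 0.999), each smaller than its SE.

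The difference between genotypes in iWAT was below 0 for 19 of the 22 ligands, with a median of -0.88 against -0.02 over all genes, and 4 ligands, *Ccl2*, *Ccl6*, *Ccl7* and *Ccl9*, did not overlap between genotypes (8.2% of genes). Restricted to the lower series, 4 wild type against 2 *Acod1*-/- libraries, *Ccl6*, *Ccl7* and *Ccl9* were called lower and *Cxcl14* higher in *Acod1*-/- mice. That fit called 2096 of 14801 genes. In the higher series the single *Acod1*-/- library had 45.2 CPM of *Ccl9* against 60.5 in the wild type library and 65.3 against 76.3 CPM of *Ccl6*. Without *Acod1*-/- library 3, which had 18 weeks of HFD, 3 ligands were called among 2659 genes, and without HFD wild type library 5, 2 ligands among 214 genes.

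The receptors of these ligands were counted in the same way. Of 18 chemokine receptor genes, 9 were tested in eWAT, where 8 rose and none fell with HFD (24.8% and 26.9% of genes) and 3 fell with the loss of *Acod1* (10.8%). In iWAT 13 were tested, of which 2 rose and 10 fell with HFD (25.9% and 24.2% of genes) and none was called between genotypes. Lymphocytes and dendritic cells carry many of these receptors, and all 3 ND iWAT libraries held the B-cell, T-cell and lymph node transcripts described above, so diet and lymph node content cannot be told apart for the receptors that fell there. The effect of diet differed between the depots for 11 of 14, all higher in eWAT (14.2% of genes), in a test that uses the same ND iWAT libraries. *Cxcr6*, the receptor of *Cxcl16*, changed by 0.99 ± 0.43 log2 (adjusted p = 0.0776) in eWAT and -2.61 ± 0.62 log2 (adjusted p = 0.0068) in iWAT, and *Cxcr5*, the receptor of *Cxcl13* on B cells, by -5.33 ± 0.85 log2 (adjusted p = 0.000787) in iWAT. *Cx3cr1*, the receptor of *Cx3cl1*, fell in *Acod1*-/- eWAT (-1.54 ± 0.46 log2, adjusted p = 0.0439). Most of the 5 atypical receptors bind chemokines without G protein signaling. Of the 5, 2 rose and 1 fell with HFD in eWAT (24.8% and 26.9% of genes). In iWAT 3 rose (25.9%), and *Ackr1* rose in both depots (1.55 ± 0.32 log2, adjusted p = 0.00267 and 1.18 ± 0.35 log2, adjusted p = 0.0197).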

How the data were processed

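RNA from snap-frozen eWAT and iWAT was extracted with TRIzol and made into directional mRNA libraries by the authors, who trimmed reads with cutadapt, removed contaminants and aligned them with STAR to GRCm38 (Ensembl 95). The deposited counts are whole numbers of uniquely aligned reads per gene, and the deposited FPKM values are per kilobase of cDNA, scaled to the reads counted on genes. Both came from the authors, and the FPKM could be recomputed from the counts to within 0.0005. The counting program and its use of strand are not given in the sources used here. Between 31.41 and 52.34 M reads per library (median 42.09) were counted on genes. Classes that name no gene were left out of library sizes and tests, and held 6.41 to 11.88% (no feature) and 1.52 to 2.07% (ambiguous) of reads. No pair of replicates agreed within sampling noise (chi-square per degree of freedom at least 30.9).

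Ensembl IDs were joined to symbols through GENCODE vM21 (54723 of 54752 matched). Genes whose mean over a depot's libraries reached 1 CPM were tested with edgeR 4.0.16 (quasi-likelihood, TMM) in R 4.3.3. Each depot had its own fit of 3 groups, and a joint fit of 6 groups over 25 libraries gave the depot differences and interactions. P-values were adjusted by Benjamini-Hochberg over all genes tested and called under 0.1. SE is the log2 fold change divided by the square root of F. DESeq2 1.42.0, other size factors and filters, a replicate block, the numbering series as a term and leaving out each library were alternatives, and the lower series alone was added after the data were seen. Figures and tables were made with Python 3.11.15, pandas 2.3.3 and matplotlib 3.10.9, and the fits were tested on simulated data. Every ligand that passed the filter was eligible to be named, and the members and gene lists were chosen with earlier results of these data known. Labels name each library as a separate mouse of its group. Promoter windows came from RefSeq (GRCm38.p6). Of the receptor genes counted, 1 is not reported here by name.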

Additional observations from a re-analysis of the deposited data

Results flagged for a closer look

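By Dixon's test at 95%, which chance meets in about 1 group in 20, 9 of 76 pairs of a ligand and a group held a library far from the others. HFD wild type eWAT library 4 had 56.2 CPM of *Ccl2* (the others 21.8 to 29.2), 23.8 CPM of *Ccl5* (8.97 to 9.90) and 52.9 CPM of *Ccl8* (8.89 to 18.7). HFD wild type iWAT library 4 had 33.3 CPM of *Ccl2* (7.34 to 8.81) and 29.5 CPM of *Ccl7* (8.86 to 10.6). The eWAT *Acod1*-/- library 5 had 30.8 CPM of *Ccl8* (3.33 to 6.55). HFD wild type iWAT library 5 had 1.45 CPM of *Ccl19* (0 to 0.228), 8.20 CPM of *Ccl21a* (0 to 1.85) and 8.92 CPM of *Ccl22* (0.603 to 2.66), beside its B-cell marker sum of 94.9 CPM.

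The response to diet differed between the depots, as the eWAT minus the iWAT log2 fold change, for *Ccl22* (5.16, adjusted p = 0.000615), *Ccl21a* (5.07, 0.0132), *Cxcl13* (4.82, 0.0293), *Ccl5* (4.52, 0.000366), *Ccl4* (3.38, 0.0716), *Ccl8* (2.89, 0.0512), *Cxcl16* (2.89, 0.000162), *Cxcl14* (1.25, 0.0540), *Ccl24* (-2.12, 0.0130) and *Ccl28* (-5.33, 0.00556). The ND iWAT libraries behind these diet values held lymph node transcripts. The response to the loss of *Acod1* differed for *Cxcl14* (-2.83, 0.0297).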

How the results depend on the processing

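Over 222 values of a ligand in a comparison and 4012 alternatives to them, 3792 kept direction and side of the threshold, 154 lost the call, 65 gained it and 1 turned, *Cxcl9* in iWAT diet with the numbering series as a term (-0.081, adjusted p = 0.712). Leaving out 1 library gave 15 to 17 ligands called for eWAT diet (17 with all libraries), 5 to 16 for eWAT genotype (13), 13 to 16 for iWAT diet (16), 0 to 3 for iWAT genotype (0), 11 to 17 between depots in ND (17), 3 to 8 in HFD wild type (7) and 1 to 3 in *Acod1*-/- mice (2, and 1 without iWAT library 1 or 2), 8 to 12 for diet by depot (10) and 1 for genotype by depot. The same fits called 6636 to 7564 genes for eWAT diet, 1723 to 4237 for eWAT genotype and 5517 to 7106 for iWAT diet. For iWAT genotype they called 0 to 2659 genes. Between depots they called 3155 to 4607 genes in ND, 1701 to 3025 in HFD wild type and 181 to 1128 in *Acod1*-/- mice. For diet by depot the range was 3057 to 4686 genes and for genotype by depot 1 to 393. The number of ligands at 1 FPKM was 25 to 27. An adjusted p under 0.05 left 6 ligands for eWAT genotype (1717 genes), 4 between depots in HFD wild type (1946) and 1 in *Acod1*-/- mice (330). Fitting only the groups compared left 8 for eWAT genotype (2196 genes). Asking for 1 CPM in every library, which tests fewer genes, left 6 ligands for iWAT diet (6283 genes) and 6 between depots in ND (3565). It left 1 between depots in *Acod1*-/- mice (242 genes) and 3 for diet by depot (3522). DESeq2 gave 6 for iWAT genotype and 4 between depots in *Acod1*-/- mice, the lower numbering series alone 4 for iWAT genotype and no filter 1. Where the cause is not given, it was not tested. Under the settings other than leaving out 1 library, counts of all genes called moved by more than 1.5 times in these cases: eWAT diet from 7730 to 5139 with the numbering series; eWAT genotype from 2976 to 1717 at 0.05; iWAT genotype from 0 to 4 with the numbering series, 5 with DESeq2 size factors, 77 with no filter, 91 with 1 CPM in every library, 1072 with DESeq2 and 2096 in the lower series; depots in *Acod1*-/- mice from 658 to 72 with only those groups, 242 with 1 CPM in every library, 267 with the block, 330 at 0.05 and 1040 with DESeq2; and genotype by depot from 1 to 85 with the block and 115 with DESeq2. Leaving out 1 library moved them by as much for eWAT genotype (1723 and 1851 without HFD wild type library 1 or 4, 1831 and 1933 without *Acod1*-/- library 3 or 4), iWAT genotype (2659 without *Acod1*-/- library 3, 214 without HFD wild type library 5), depots in ND (3155 without iWAT library 2), in HFD wild type (1701 without eWAT library 1) and in *Acod1*-/- mice (387 without eWAT library 4, 181 and 1128 without iWAT library 2 or 3) and genotype by depot (393 and 58 without iWAT *Acod1*-/- library 3 or 1, 222 and 2 without eWAT *Acod1*-/- library 5 or 3). Same-numbered libraries did not deviate together in every pair (r from -0.07 to 0.47 between depots, -0.26 to 0.26 within eWAT and -0.33 to 0.36 within iWAT, and over 0.1 in 4 of 11, 9 of 13 and 4 of 9 pairs), so the numbers were not taken as pairs, and whether they mark shared animals is not known. With the replicate block, 16 ligands and 6906 genes were called for eWAT diet, 10 and 2389 for eWAT genotype and 14 and 5672 for iWAT diet. No ligand and no gene was called for iWAT genotype. Between depots the block gave 18 ligands and 4735 genes in ND, 10 and 3277 in HFD wild type and 1 and 267 in *Acod1*-/- mice. It gave 11 ligands and 4254 genes for diet by depot and 1 and 85 for genotype by depot. The low counts of *Ccl3* and *Ccl4*, at most 13.1 CPM, limit their precision.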

Other observations

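*Pf4* and *Ppbp* are chemokine ligands of platelets that the symbol rule leaves out. *Pf4*, which macrophages also make, rose by 1.75 ± 0.26 log2 (adjusted p = 0.00052) with HFD in eWAT and 2.50 ± 0.36 log2 (adjusted p = 0.000476) in iWAT, and changed by -1.24 ± 0.24 log2 (adjusted p = 0.0115) in *Acod1*-/- eWAT and -0.60 ± 0.33 log2 (adjusted p = 0.384) in *Acod1*-/- iWAT. *Ppbp* fell by 0.82 ± 0.35 log2 (adjusted p = 0.0763) with HFD in eWAT. Mast cell genes (*Cpa3*, *Cma1*, *Tpsb2* and *Mcpt4*) all rose with HFD (24.8% of all genes) and all fell with the loss of *Acod1* (10.8%) in eWAT. The list of 7 mast cell and eosinophil markers summed to 3.28 to 10.6 CPM in ND, 9.79 to 175 CPM in HFD wild type and 4.53 to 22.7 CPM in HFD *Acod1*-/- eWAT. *Epx* of eosinophils was at 0 in those 3 groups, beside a *Ccl11* level of 76.5 ± 14.3 FPKM (SD, n = 5) in HFD wild type eWAT. *Ccr3*, the receptor of *Ccl11*, rose with HFD in eWAT (4.19 ± 1.17 log2, adjusted p = 0.0119) and fell with the loss of *Acod1* (-4.35 ± 1.08 log2, adjusted p = 0.0228). The presence of eosinophils was not tested. Of 8 neutrophil markers 2 passed the filter, *Csf3r* and *S100a8*. Both rose with HFD in eWAT (24.8% of all genes), and *Csf3r* fell with the loss of *Acod1* (10.8%). The list summed there to 2.18 to 6.15 CPM in ND, 31.7 to 56.5 CPM in HFD wild type and 3.97 to 42.4 CPM in HFD *Acod1*-/- mice.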
